A study of Arabidopsis thaliana with 14 samples.

Results

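The type-A response regulators of *Arabidopsis thaliana* were examined in the RNA-seq libraries of leaves from the histone deacetylase mutant *hda9*, the *powerdress* mutant *pwr* and wild type (WT). The group was chosen by gene identifier, under a rule that takes no measured value, as the 10 loci *ARR3* (AT1G59940), *ARR4* (AT1G10470), *ARR5* (AT3G48100), *ARR6* (AT5G62920), *ARR7* (AT1G19050), *ARR8* (AT2G41310), *ARR9* (AT3G57040), *ARR15* (AT1G74890), *ARR16* (AT2G40670) and *ARR17* (AT3G56380). All 10 were found among the 33278 gene identifiers in each of the 2 tables of expression values. HDA9 is a histone deacetylase and PWR a SANT-domain protein, and the study asked what both do to gene expression in aging leaves.

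Cytokinin is a plant hormone that is known to delay leaf senescence. It is sensed by membrane histidine kinases, which pass phosphate through histidine phosphotransfer proteins to type-B response regulators in the nucleus, and these are transcription factors that activate cytokinin responsive genes. Type-A response regulator genes are among the first genes that cytokinin induces in this way, and their short proteins, which lack the DNA binding domain of the type-B class, act back on the pathway as negative regulators.

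There were 9 RNA-seq libraries. Early senescent (ES) leaves were taken from *hda9* (hda9-ES, 2 libraries), *pwr* (pwr-ES, 2 libraries) and WT (WT-ES, 2 libraries), and young leaves (YL) from *hda9* (hda9-YL, 1 library) and WT (WT-YL, 2 libraries). The WT was Columbia-0, and *hda9* and *pwr* were each 1 T-DNA insertion line, so an effect of the locus could not be told apart from an effect of that line. All plants were grown on soil under continuous light, at 21 °C per the labels. The YL plants were 2 weeks old per the labels, and the age of the ES leaves is not given there. The study's methods differ from the labels, with a younger age for YL and a slightly higher temperature. The study's methods name biological replicates, but the labels do not say which plants or pools made up a library, so p-values measure only the spread between these libraries, which may be technical.

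Expression was given as FPKM, the number of sequenced fragments per kilobase of transcript scaled to the total of mapped reads, which allows levels to be set side by side between genes of different length. No count of reads for each gene was given with these values, so the depth behind a single FPKM value is unknown. In bulk leaf RNA, fewer cells of a type and less RNA per cell cannot be told apart. A technical feature that the labels do not name separated 5 of the 9 libraries from the other 4. In replicate 2 of hda9-ES, both pwr-ES libraries, replicate 2 of WT-ES and replicate 2 of WT-YL, FPKM values of weakly expressed genes lay on shared steps of whole reads, and in the other 4 libraries they did not. The other 4 are only those without the feature, and nothing in the files shows that they were made together. Replicate 2 of hda9-ES and of WT-ES had the steps and replicate 1 of each did not, whereas both pwr-ES libraries had them and could be compared with WT-ES replicate 2 alone among libraries with steps. *HDA9* itself had 1.12 and 3.21 FPKM in hda9-ES, against 5.94 and 11.66 FPKM in WT-ES, and *PWR* had 7.01 and 6.02 FPKM in pwr-ES, against 10.18 and 16.97 FPKM in WT-ES, so each mutated gene was lower in its own mutant without being absent. The summed FPKM of 5 green leaf markers was between 2274 and 14807 in the 6 ES libraries, against 27973 to 40283 in the 3 YL libraries. *RBCS1A* was the highest of these markers in every library. In WT, *RBCS1A*, *RBCS3B*, *LHCB1.1* and *PSAD1* were lower in ES for both replicate numbers. *LHCB2.1* went the other way, with 1793 and 739 FPKM in WT-ES, against 1144 and 395 FPKM in WT-YL. The sum of 6 leaf senescence markers was between 352 and 2132 in ES, against 59.3 to 108 in YL, although *SAG12*, a defining marker of senescence, was listed at 0 in WT-ES replicate 1 and in every YL library. Markers of the shoot meristem summed to at most 0.986 FPKM in any ES library and 10.4 to 12.1 FPKM in YL, and flower markers to at most 1.41 FPKM in ES and 2.66 to 5.34 FPKM in YL. *WUS*, which defines the stem cell organizer of the meristem, was listed at 0 in every library, as were the flower genes *AG* and *AP1* in YL.

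Type-B response regulators are known to bind DNA at a short core, AGATT or AGATC, and promoters of type-A genes are known targets. Because several of the genes moved together across libraries, the 300 bases before the annotated start of each gene were read from the RefSeq annotation of TAIR10.1. The promoters of *ARR6*, *ARR7* and *ARR8*, whose levels followed each other most closely, and of *ARR16*, which followed them least, are printed 5′ to 3′ in the direction of the gene, with every AGATT or AGATC on either strand in capitals (AATCT and GATCT are the same cores on the other strand).
ARR6 (chr5:25254319-25254618, minus strand): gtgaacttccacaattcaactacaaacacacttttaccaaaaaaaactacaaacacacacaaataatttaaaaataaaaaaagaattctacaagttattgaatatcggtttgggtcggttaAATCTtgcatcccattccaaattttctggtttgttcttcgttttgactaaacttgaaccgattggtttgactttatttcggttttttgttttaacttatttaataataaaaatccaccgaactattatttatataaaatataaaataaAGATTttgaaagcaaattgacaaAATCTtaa
ARR7 (chr1:6579315-6579614, minus strand): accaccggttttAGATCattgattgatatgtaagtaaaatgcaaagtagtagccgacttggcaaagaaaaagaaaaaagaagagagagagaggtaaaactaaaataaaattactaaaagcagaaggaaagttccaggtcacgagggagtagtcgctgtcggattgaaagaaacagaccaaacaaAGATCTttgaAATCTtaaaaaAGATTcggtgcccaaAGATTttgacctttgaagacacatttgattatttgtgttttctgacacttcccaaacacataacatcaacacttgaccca
ARR8 (chr2:17221540-17221839, plus strand): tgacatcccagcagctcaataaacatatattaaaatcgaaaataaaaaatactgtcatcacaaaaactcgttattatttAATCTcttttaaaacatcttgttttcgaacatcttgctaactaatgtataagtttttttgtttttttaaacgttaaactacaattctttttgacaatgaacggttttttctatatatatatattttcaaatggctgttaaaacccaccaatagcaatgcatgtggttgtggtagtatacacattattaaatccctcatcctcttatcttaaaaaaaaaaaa
ARR16 (chr2:16969373-16969672, plus strand): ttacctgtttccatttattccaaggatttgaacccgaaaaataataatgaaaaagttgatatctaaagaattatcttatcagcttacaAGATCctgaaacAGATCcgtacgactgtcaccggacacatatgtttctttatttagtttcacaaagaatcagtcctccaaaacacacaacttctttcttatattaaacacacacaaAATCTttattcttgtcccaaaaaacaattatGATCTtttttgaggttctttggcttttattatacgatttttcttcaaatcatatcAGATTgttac

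No annotated gene overlapped any of these 4 windows. The *ARR7* promoter held 3 AGATT and 3 AGATC cores, where AGATCT counts as AGATC on each strand. The *ARR16* promoter held 2 AGATT and 3 AGATC cores. The *ARR6* promoter held 3 AGATT cores and *ARR8* 1. *ARR6*, *ARR7* and *ARR8* had unlike numbers of cores, and *ARR16* had nearly as many as *ARR7*. Whether the number of cores relates to the levels of these genes was not tested. Among the other promoters, *ARR15* had 4 AGATT cores, *ARR9* 2, *ARR5* 2 AGATC cores, and *ARR3*, *ARR4* and *ARR17* had 1 core each. At least 1 core was found in 10 of 10 promoters of the group, against 79.9% of the 27443 promoters of nuclear protein-coding genes at the same length. At least 2 were found in 6 of 10, against 50.2%, and at least 3 in 4 of 10, against 25.7%. AGATT taken alone was found in 7 of 10, against 70.7%, and AGATC in 5 of 10, against 31.7%. Such matches describe letters in a window, not binding.

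In ES leaves, levels within the group spanned from *ARR4*, at a mean of 96.2 FPKM over the 6 libraries, to *ARR17*, listed at 0 in every library. *ARR4*, which is known to interact with the red light receptor phytochrome B, stood above every other gene of the group in 6 of 6 libraries and made up between 51.6% and 66.0% of the group's summed FPKM in ES. Below it came *ARR8* (mean 14.9 FPKM), *ARR7* (14.7 FPKM), *ARR9* (14.1 FPKM), *ARR16* (11.8 FPKM) and *ARR6* (8.27 FPKM), and no neighbours among these 5 kept the same order in all 6 libraries. *ARR5* (3.53 FPKM) was below *ARR6* in 6 of 6 libraries and above *ARR15* (0.249 FPKM) in 6 of 6. The genes form known pairs of close relatives, and the relatives were not at like levels, since *ARR4* was at the top and *ARR3* was above 0 in 1 ES library alone, at 0.0886 FPKM in pwr-ES replicate 2. The sources used here do not say how reads that fit both genes of such a pair were assigned.

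**Figure D1:**
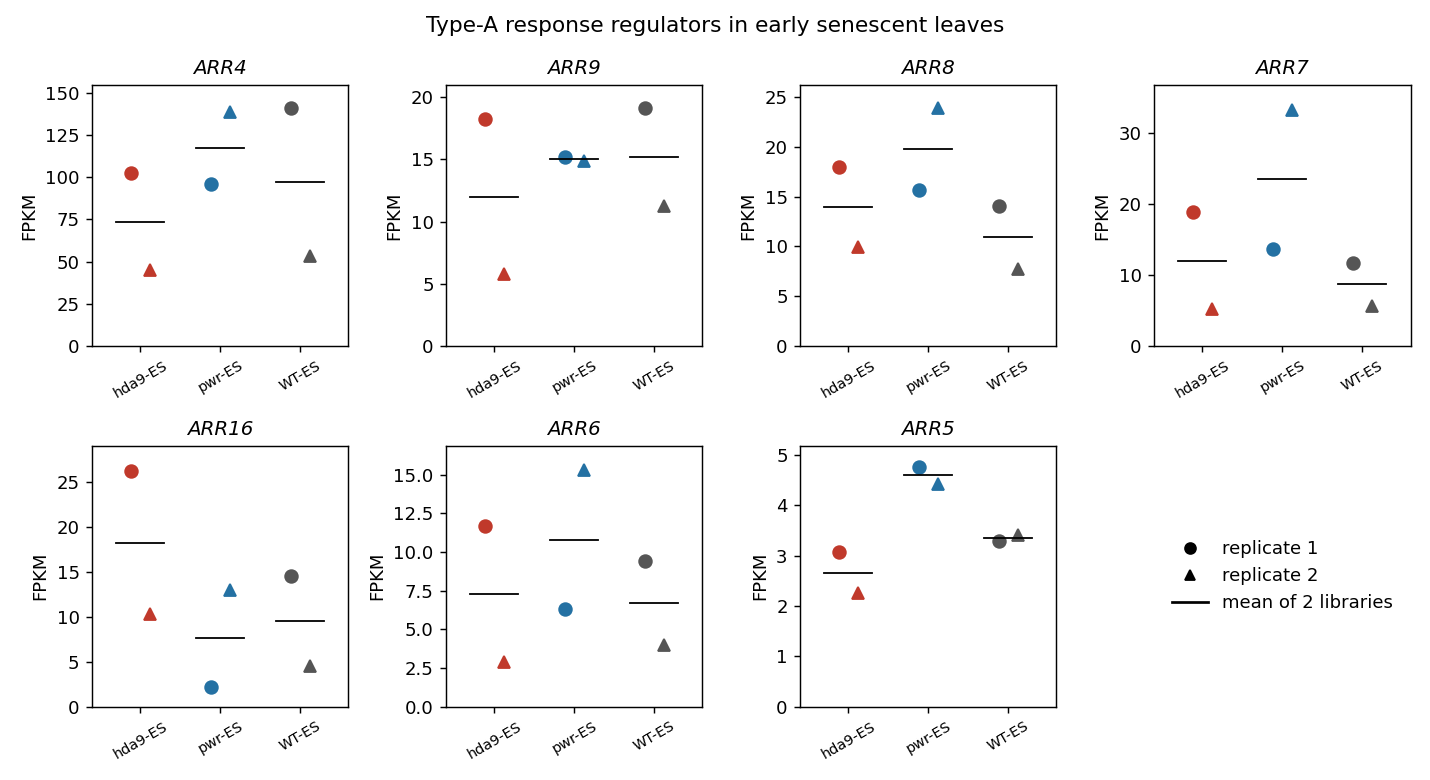
FPKM of the 7 type-A genes with a mean of at least 1 FPKM in ES leaves, with a panel for each gene and its own axis from 0. Circles and triangles are replicates 1 and 2 of hda9-ES (red), pwr-ES (blue) and WT-ES (grey), and lines are means of 2 libraries; *ARR5* is the gene whose hda9-ES libraries (2.25 and 3.06 FPKM) lay below and whose pwr-ES libraries (4.43 and 4.76 FPKM) lay above both WT-ES libraries.

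The comparison of *hda9* with WT asked whether loss of HDA9 changed the level of these genes in ES leaves. None of the 7 genes of the group that could be tested was called higher or lower in hda9-ES, where called means an unadjusted p under 0.05 in limma, the threshold of the study's methods. Over all 18140 genes tested, 4.93% were called in this comparison. The 3 genes outside the test, *ARR3*, *ARR15* and *ARR17*, had a mean under 1 FPKM in ES leaves. The median log2 fold change of the 7 genes was -0.04, against 0.01 over all genes, with 3 genes above 0 and 4 below.

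*ARR16*, a type-A gene known from the stomatal lineage, had 26.23 and 10.31 FPKM in hda9-ES, against 14.55 and 4.49 FPKM in WT-ES. The groups overlapped, yet the hda9-ES library was above the WT-ES library both without steps (replicate 1, by 0.81 on the log2(FPKM + 1) scale) and with steps (replicate 2, by 1.04). Its fitted log2 fold change was 0.93 (standard error 0.89, limma adjusted p = 0.926). *ARR8* had 17.97 and 9.99 FPKM in hda9-ES, against 14.12 and 7.71 FPKM in WT-ES, and it too was higher in both of these pairs, by 0.33 and 0.34. These differences were smaller than those between the 2 libraries of a genotype.

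*ARR4* had 102.58 and 44.96 FPKM in hda9-ES, against 141.24 and 53.49 FPKM in WT-ES. *ARR9* had 18.24 and 5.75 FPKM in hda9-ES, against 19.14 and 11.29 FPKM in WT-ES. *ARR5* had 3.06 and 2.25 FPKM in hda9-ES, against 3.29 and 3.42 FPKM in WT-ES. All 3 genes were lower in hda9-ES in both pairs, and *ARR5* was the 1 gene of 7 whose hda9-ES and WT-ES libraries did not overlap, which was the case for 31.0% of all genes. Their fitted log2 fold changes were -0.35 for *ARR4* (standard error 0.61), -0.47 for *ARR9* (standard error 0.54) and -0.26 for *ARR5* (standard error 0.27), with limma adjusted p between 0.930 and 0.945. *ARR9* (AT3G57040) was called without hda9-ES replicate 1 (log2 fold change -1.22, limma adjusted p = 0.519) and turned to 0.29 without hda9-ES replicate 2.

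*ARR7*, which in *Arabidopsis* is known as a direct target of WUS in the shoot meristem, had 18.91 and 5.16 FPKM in hda9-ES, against 11.74 and 5.66 FPKM in WT-ES. *ARR6* had 11.69 and 2.90 FPKM in hda9-ES, against 9.43 and 4.0 FPKM in WT-ES. For both genes hda9-ES replicate 1 was the highest and hda9-ES replicate 2 the lowest of the 4 libraries, so the direction depended on the library taken. The fitted log2 fold changes were 0.26 for *ARR7* (standard error 0.72) and -0.04 for *ARR6* (standard error 0.72). Of the genes under the filter, *ARR15* had 0.163 and 0 FPKM in hda9-ES, against 0.411 and 0.200 FPKM in WT-ES, and *ARR3* was listed at 0 in all 4 libraries.

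The comparison of *pwr* with WT asked the same of PWR. In pwr-ES 6 of the 7 genes had a fitted level above WT-ES, and the median log2 fold change was 0.41, against 0.08 over all genes. None of the 7 was called in limma, against 6.47% of all genes tested. The comparison uses the same WT-ES libraries as that of *hda9*, so the 2 sets of values are not independent.

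*ARR7* had 13.67 and 33.36 FPKM in pwr-ES, against 11.74 and 5.66 FPKM in WT-ES. *ARR8* had 15.66 and 23.95 FPKM in pwr-ES, against 14.12 and 7.71 FPKM in WT-ES. *ARR5* had 4.76 and 4.43 FPKM in pwr-ES, against 3.29 and 3.42 FPKM in WT-ES. In these 3 genes of 7 both pwr-ES libraries lay above both WT-ES libraries, as they did for 25.7% of all genes. The fitted log2 fold changes were 1.28 for *ARR7* (standard error 0.72, limma adjusted p = 0.738), 0.83 for *ARR8* (standard error 0.44, limma adjusted p = 0.731) and 0.36 for *ARR5* (standard error 0.27, limma adjusted p = 0.762).

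*ARR4* had 96.33 and 138.61 FPKM in pwr-ES, against 141.24 and 53.49 FPKM in WT-ES. *ARR6* had 6.30 and 15.30 FPKM in pwr-ES, against 9.43 and 4.0 FPKM in WT-ES. *ARR16* had 2.21 and 12.98 FPKM in pwr-ES, against 14.55 and 4.49 FPKM in WT-ES. The groups overlapped in each of these genes, and on the log2 scale *ARR16* was the gene with the widest spread between the pwr-ES libraries. The fitted log2 fold changes were 0.41 for *ARR4*, 0.59 for *ARR6* and -0.46 for *ARR16*, with standard errors of 0.61, 0.72 and 0.89. *ARR9* had 15.17 and 14.88 FPKM in pwr-ES, between the 19.14 and 11.29 FPKM of WT-ES, with a log2 fold change of 0.03 that turned to -0.019 and -0.075 under the other 2 scalings. Of the weak genes, *ARR15* had 0 and 0.720 FPKM in pwr-ES, against 0.411 and 0.200 FPKM in WT-ES.

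WT-ES replicate 2 was the only WT-ES library with steps. Compared with it alone, pwr-ES replicate 1 was higher in 6 of 7 genes (median difference 0.54) and pwr-ES replicate 2 in 7 of 7 (1.36). Of all genes 51.5% and 49.2% were higher in these 2 comparisons, with medians of 0.01 and -0.005. This WT-ES library was also the lower one for the group, with a sum of 90.3 FPKM against 214 FPKM in replicate 1. It lay below replicate 1 in 6 of 7 genes, so the size of these differences depended on the WT-ES library taken. With the presence of steps as a block in limma, 3 of the 7 genes were called higher in pwr-ES, where of all genes 12.3% were called in either direction and 5.69% higher, with log2 fold changes of 1.04 for *ARR4* (AT1G10470), 1.94 for *ARR7* (AT1G19050) and 1.23 for *ARR8* (AT2G41310), each with a limma adjusted p of 0.395. *ARR16* turned to 0.23 in that fit. In hda9-ES against WT-ES the block gave 0 calls among the 7 genes, against 17.0% of all genes.

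**Figure D2:**
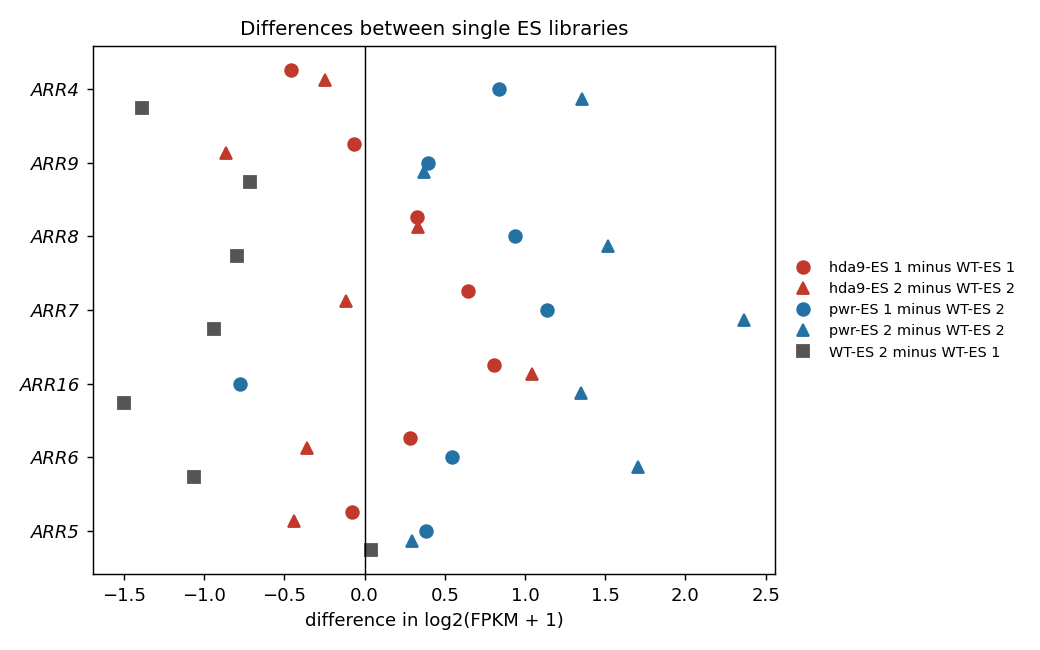
Differences in log2(FPKM + 1) between single ES libraries for the 7 tested genes (rows), with red symbols for hda9-ES minus WT-ES of the same replicate number, blue symbols for pwr-ES minus WT-ES replicate 2, and grey squares for WT-ES replicate 2 minus WT-ES replicate 1. The grey squares lie below 0 for 6 of 7 genes, down to -1.50 for *ARR16*.

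The direct comparison of *hda9* with *pwr* asked whether the mutants differed from each other. Levels were lower in hda9-ES than in pwr-ES for 6 of the 7 genes by the fitted values, with a median log2 fold change of -0.62, against -0.07 over all genes. The median was -1.25 without hda9-ES replicate 1 and -0.10 without hda9-ES replicate 2. None of the 7 was called, against 4.77% of all genes. *ARR5* had 3.06 and 2.25 FPKM in hda9-ES, against 4.76 and 4.43 FPKM in pwr-ES, and came nearest to the threshold (log2 fold change -0.62, standard error 0.27, limma adjusted p = 0.926). *ARR16* was the exception in direction, with 26.23 and 10.31 FPKM in hda9-ES, against 2.21 and 12.98 FPKM in pwr-ES (log2 fold change 1.39, standard error 0.89). With the presence of steps as a block, *ARR4*, *ARR5*, *ARR7*, *ARR8* and *ARR9* were called lower in hda9-ES, with log2 fold changes of -1.40, -0.69, -1.68, -0.89 and -1.05 in that order, with limma adjusted p between 0.151 and 0.240. In that fit 19.0% of all genes were called, and 9.06% were called lower. Without hda9-ES replicate 1, *ARR7* and *ARR9* were called lower (log2 fold changes -1.87 and -1.25), and without pwr-ES replicate 2, *ARR16* was called higher (log2 fold change 2.45).

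The 2 libraries of 1 genotype stood far apart in these genes. The group's summed FPKM was 199 and 81.3 in hda9-ES, 154 and 244 in pwr-ES, and 214 and 90.3 in WT-ES. In both hda9-ES and WT-ES, replicate 2 was lower than replicate 1 for 6 of the 7 tested genes, against 28.6% of all genes that were lower in both. The median difference of replicate 2 from replicate 1 was -1.27 in hda9-ES and -0.94 in WT-ES on the log2 scale, whereas over all genes it was 0.14 in hda9-ES and 0.18 in WT-ES. *ARR5* was the exception, with 3.42 FPKM in replicate 2 and 3.29 FPKM in replicate 1 of WT-ES. The 2 pwr-ES libraries, which both had steps, still differed by a median of 0.58, with 5 of 7 genes higher in replicate 2.

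The sums of leaf markers also differed between the libraries of a genotype. Green leaf markers summed to 10895 and 2274 FPKM in hda9-ES, 6515 and 8913 FPKM in pwr-ES, and 14807 and 5441 FPKM in WT-ES, with all 5 markers above 0 in each library. Leaf senescence markers summed to 1428 and 2132 FPKM in hda9-ES, 535 and 352 FPKM in pwr-ES, and 568 and 1440 FPKM in WT-ES. In hda9-ES and in WT-ES, the library with the higher sum of type-A genes (replicate 1) had all 5 green leaf markers higher and all 6 senescence markers lower. In pwr-ES the markers disagreed, since in replicate 2, with the higher type-A sum, 3 of 5 green leaf markers were higher and 4 of 6 senescence markers were higher too, although the summed FPKM of all 6 was lower. Against WT-ES, hda9-ES had a lower green leaf sum and a higher senescence sum in both replicate numbers. Both pwr-ES libraries had senescence sums below, and green leaf sums between, those of the WT-ES libraries. The study reported later leaf yellowing in both mutants, and lower *SEN4*, *SAG12* and *SAG113* in *hda9* by quantitative RT-PCR. Here *SEN4* and *SAG12* were higher in hda9-ES in both replicate numbers, and *SAG113* in replicate 1 alone. The part of leaf stage, or of the presence of steps, in the type-A values was not tested.

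**Figure D3:**
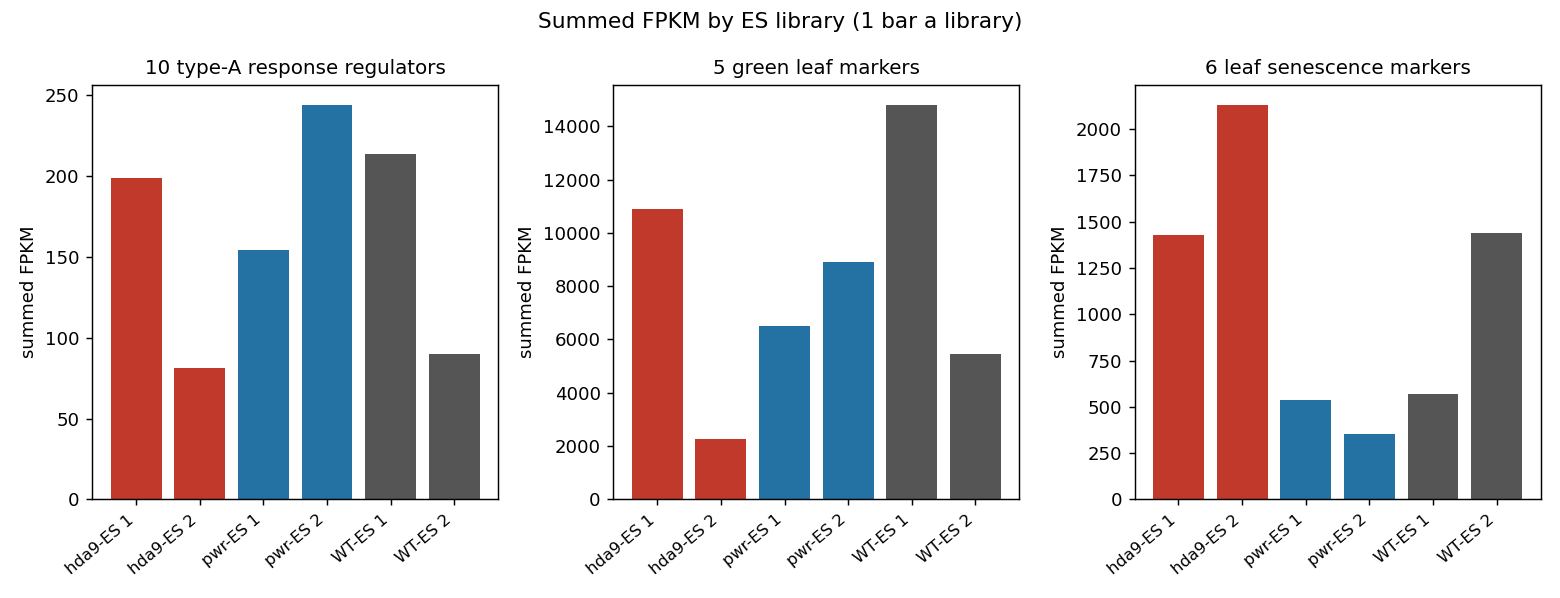
Summed FPKM in each ES library (1 bar a library, axes from 0) of the 10 type-A genes, of 5 green leaf markers and of 6 leaf senescence markers. Replicate 2 of hda9-ES and of WT-ES had the 2 lowest type-A sums (81.3 and 90.3 FPKM) and the 2 lowest green leaf sums (2274 and 5441 FPKM).

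Over the 6 ES libraries the tested genes moved together. Pearson's r of log2(FPKM + 1) was above 0 in 20 of 21 pairs of genes, with a median of 0.60, and since all genes share the same 6 libraries these values only describe them. The r of pairs of other genes was not computed, so how common such values are in these libraries is unknown. The closest pairs were *ARR7* with *ARR8* (r = 0.97), *ARR6* with *ARR7* (r = 0.95) and *ARR4* with *ARR6* (r = 0.92). *ARR16* was the least alike of the 7, from -0.46 with *ARR5* to 0.52 with *ARR6*. *ARR16* also varied most, with a highest level 11.9 times its lowest, and *ARR5* least, with a ratio of 2.12. Among 14187 other genes with a mean of at least 5 FPKM in ES, those most like the group's mean profile over the 6 libraries were AT2G36835 (r = 0.993), AT1G62780 (r = 0.993) and *CRR1* (AT5G52100, r = 0.990), where *CRR1* is known for its part in the chloroplast NDH complex. *CRR1* had 14.6 and 3.54 FPKM in hda9-ES, 11.5 and 18.4 FPKM in pwr-ES, and 14.1 and 5.63 FPKM in WT-ES.

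Of 57 other listed genes of cytokinin metabolism and signaling, 36 were expressed highly enough to be tested. In hda9-ES against WT-ES, 0 were called higher and 1 lower, in pwr-ES against WT-ES 1 higher and 0 lower, and in hda9-ES against pwr-ES none either way, by unadjusted p in limma. These counts stand beside the 4.93%, 6.47% and 4.77% of all genes called in those comparisons. With the presence of steps as a block the counts were larger. In hda9-ES against WT-ES 5 were then called higher (*AHK3*, *ARR2*, *CKX5*, *LOG8* and *UGT85A1*) and 1 lower (*ARR14*), against 17.0% of all genes. In pwr-ES against WT-ES 1 was called higher (*IPT3*) and 4 lower (*ARR2*, *CRF6*, *LOG1* and *UGT85A1*), against 12.3%. In hda9-ES against pwr-ES 7 were called higher and 2 lower, against 19.0%. *ARR2*, a type-B regulator, and *UGT85A1*, a cytokinin glucosyltransferase, were called in all 3 comparisons of that fit. They were higher in hda9-ES than in WT-ES and pwr-ES, and lower in pwr-ES than in WT-ES. Neither was called without the block, and the share of all genes called in all 3 was not computed. *ARR2* had 9.07 and 19.40 FPKM in hda9-ES, 7.74 and 7.83 in pwr-ES, and 4.67 and 11.80 in WT-ES. *UGT85A1* had 22.8 and 73.1 FPKM in hda9-ES, 21.3 and 17.3 in pwr-ES, and 7.25 and 55.8 in WT-ES. For both genes the pwr-ES values thus lay between those of the WT-ES libraries.

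The gene called in *hda9* was *ARR14*, a type-B response regulator and so a transcriptional activator upstream of the type-A genes. It had 3.13 and 2.46 FPKM in hda9-ES, 3.23 and 4.31 FPKM in pwr-ES, and 8.12 and 5.55 FPKM in WT-ES, so that both mutants lay below both WT libraries. How many of all genes did so was not computed. The hda9-ES and WT-ES libraries alone did not overlap, in either direction, for 31.0% of all genes. Its log2 fold change was -1.03 in hda9-ES (standard error 0.31, limma adjusted p = 0.908) and -0.70 in pwr-ES (standard error 0.31, limma adjusted p = 0.729, not called). The unblocked call was lost without hda9-ES replicate 2 (log2 fold change -0.90) and without WT-ES replicate 1 (-0.79). The gene called in *pwr* was *CKX6*, a cytokinin oxidase that degrades the hormone, with 10.89 and 7.32 FPKM in pwr-ES, against 4.65 and 5.22 FPKM in WT-ES. Its log2 fold change was 0.75 (standard error 0.28, limma adjusted p = 0.729), the call was lost with the presence of steps as a block, and it was kept in 1 of 6 fits that left out a library, that without pwr-ES replicate 2 (log2 fold change 1.0).

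By role, all 3 histidine kinase receptor genes were tested, and their median log2 fold change was -0.14 in hda9-ES and 0.19 in pwr-ES, both against WT-ES. The 5 tested phosphotransfer genes of 6 were all fitted below WT-ES in each mutant, with medians of -0.19 in hda9-ES and -0.26 in pwr-ES, and without a block none was called. The 6 tested type-B genes of 11 had medians of 0.06 in hda9-ES and 0.09 in pwr-ES. Neither of the 2 type-C response regulators reached the filter. The 5 tested cytokinin response factors of 6, transcription factors that act beside the type-B class, had medians of -0.38 in hda9-ES and -0.17 in pwr-ES. The 9 tested synthesis genes of 19 had medians of 0.18 in hda9-ES and 0.45 in pwr-ES, where 9 of 9 were fitted above WT-ES and none was called without a block. That direction depended on the fit, since with the presence of steps as a block *LOG1* was called lower in pwr-ES and *IPT3* higher. *LOG1* had 23.9 and 26.3 FPKM in pwr-ES, against 12.1 and 48.2 FPKM in WT-ES. The 8 tested breakdown and conjugation genes of 10 had medians of 0.10 in hda9-ES and 0.05 in pwr-ES. All of these medians lay within 0.5 of 0, as did those of the 7 type-A genes against WT-ES.

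**Figure D4:**
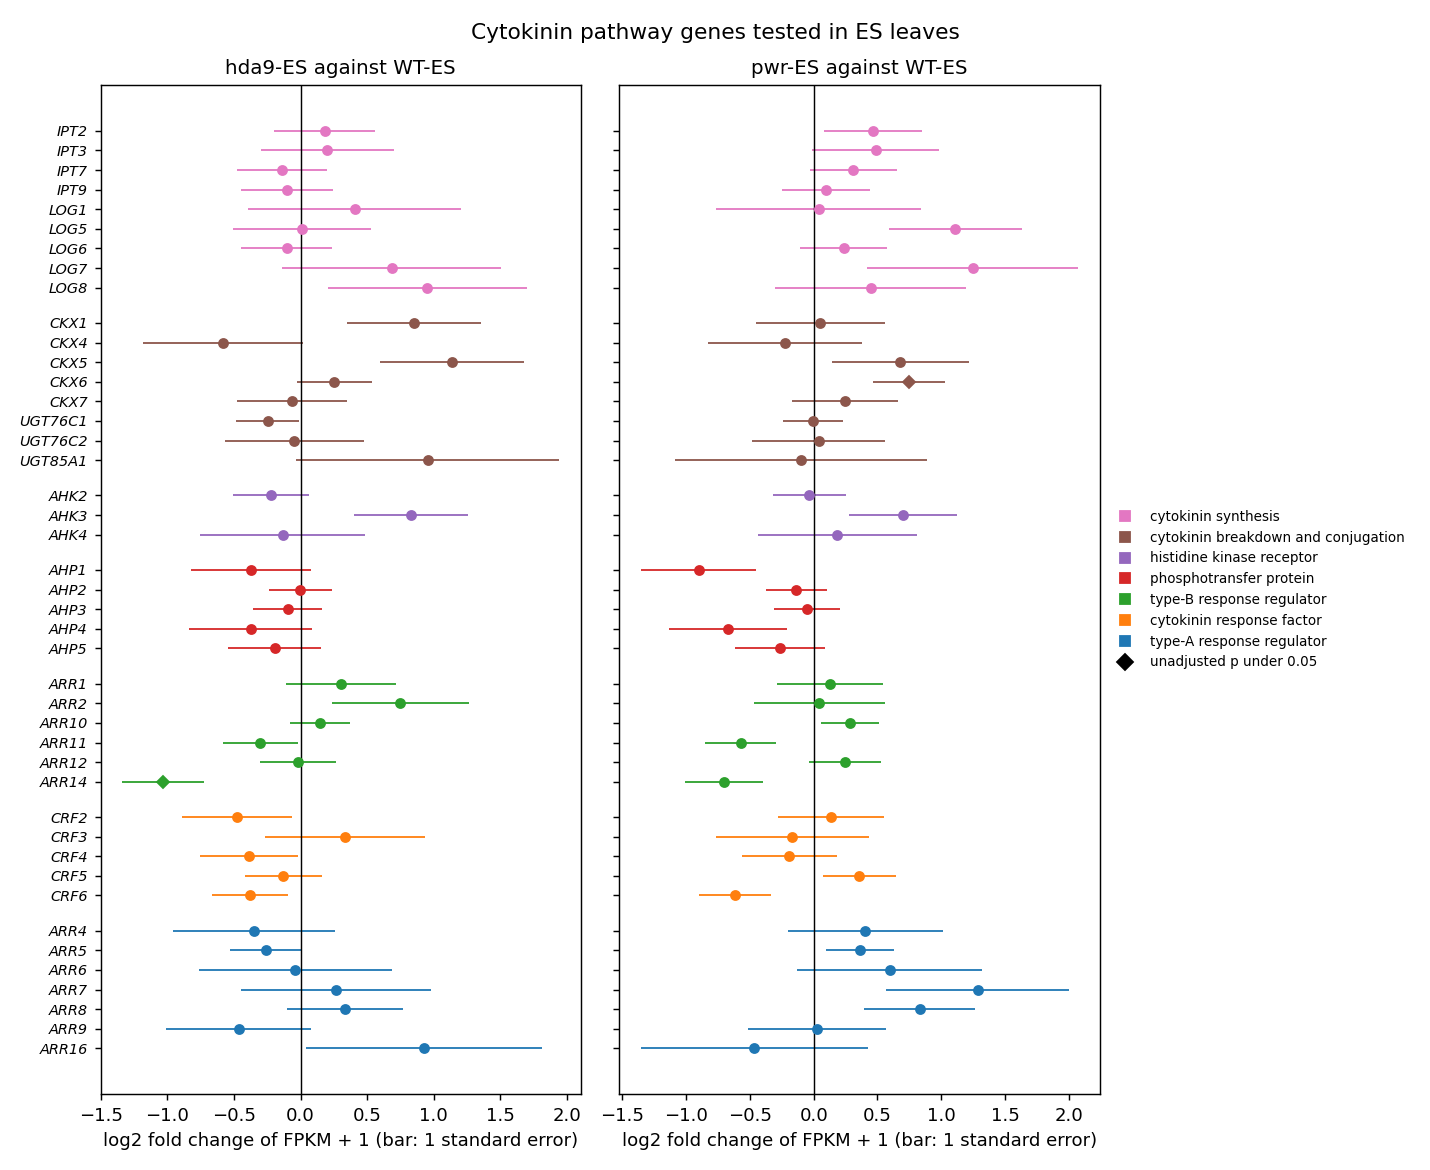
Fitted log2 fold changes of FPKM + 1 (points) with 1 standard error on each side (bars) for the 36 tested pathway genes and the 7 tested type-A genes, in hda9-ES against WT-ES (left) and pwr-ES against WT-ES (right), coloured by role. Diamonds are the genes with an unadjusted p under 0.05, *ARR14* at -1.03 on the left and *CKX6* at 0.75 on the right.

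In young leaves the single hda9-YL library was set against each WT-YL library, with no test. Of the 8 type-A genes with a mean of at least 1 FPKM in YL, 6 were below both WT-YL libraries in hda9-YL (*ARR5*, *ARR7*, *ARR8*, *ARR9*, *ARR15* and *ARR16*), against 39.8% of all genes, and *ARR15* alone was at least 2-fold below both, against 3.86% of all genes. *ARR15*, a close relative of *ARR7*, had 0.543 FPKM in hda9-YL, against 2.11 and 7.69 FPKM in WT-YL. *ARR16* had 1.27 FPKM in hda9-YL, against 3.38 and 12.9 FPKM in WT-YL. *ARR7* had 7.15 FPKM in hda9-YL, against 10.04 and 37.59 FPKM in WT-YL. The 2 WT-YL libraries differed severalfold in these genes, so the size of each difference depended on the WT-YL library used.

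*ARR5* had 3.17 FPKM in hda9-YL, against 4.71 and 15.0 FPKM in WT-YL. *ARR8* had 4.46 FPKM in hda9-YL, against 7.40 and 10.5 FPKM in WT-YL. *ARR9* had 20.4 FPKM in hda9-YL, against 27.4 and 27.8 FPKM in WT-YL. *ARR9* was the gene on which the WT-YL libraries differed least, and there the hda9-YL library was lower, with differences of -0.41 and -0.43 on the log2 scale. *ARR4* was higher in hda9-YL, at 117 FPKM, against 80.7 and 108 FPKM in WT-YL. *ARR6* had 7.51 FPKM in hda9-YL, between the 4.42 and 15.0 FPKM of WT-YL, as did *ARR3*, with 0.826 FPKM in hda9-YL and 0.346 and 1.26 FPKM in WT-YL.

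The median difference of hda9-YL over the 8 genes was -0.45 from WT-YL replicate 1 and -1.51 from WT-YL replicate 2, while over all genes it was -0.01 and -0.10. WT-YL replicate 2 was above replicate 1 in 8 of 8 genes, by a median of 1.48, against 0.08 over all genes. The hda9-YL library and WT-YL replicate 1 had no whole-read steps, and WT-YL replicate 2 had them.

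Leaf age was compared without a test, because the ES and YL values came from separate tables that may have been scaled apart. Within YL, FPKM over all genes summed to 3165920 in WT-YL replicate 1 and 2905590 in hda9-YL, but to 1188410 in WT-YL replicate 2. The highest single gene in these libraries had 2104310, 1699660 and 432947 FPKM in that order. In the ES libraries the sums were between 898584 and 1109890 FPKM. *ARR15* had the largest difference between the ages in WT by the mean of log2(FPKM + 1), with 0.411 and 0.200 FPKM in WT-ES, against 2.11 and 7.69 FPKM in WT-YL. It was the 1 gene of 8 that was at least 2-fold lower in WT-ES in both replicate numbers, against 9.23% of all genes, and 0 of 8 were at least 2-fold higher in both, against 23.4% of all genes. *ARR3* was listed at 0 in both WT-ES libraries, against 0.346 and 1.26 FPKM in WT-YL. *ARR9* had 19.1 and 11.3 FPKM in WT-ES, against 27.4 and 27.8 FPKM in WT-YL.

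*ARR5* had 3.29 and 3.42 FPKM in WT-ES, against 4.71 and 15.0 FPKM in WT-YL. *ARR5*, *ARR9* and *ARR15*, and below the filter *ARR3*, were lower in each WT-ES library than in each WT-YL library. The share of all genes for which this held was not computed, so how common it was is unknown. By a looser rule of 1 pair of libraries, 35.0% of all genes were lower in WT-ES for replicate 1 and 31.3% for replicate 2. For *ARR4*, *ARR6*, *ARR8* and *ARR16* the direction changed with the replicate number, since WT-ES replicate 1 was above WT-YL replicate 1 and WT-ES replicate 2 below WT-YL replicate 2. *ARR7* was also higher in the first pair, with a difference of 0.21 on the log2 scale, and lower in the second, with -2.53. The median difference of WT-ES from WT-YL over the 8 genes was thus 0.50 in replicate 1, with 5 genes higher, and -1.51 in replicate 2, with 0 genes higher.

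Averaged over both libraries of each age, the 8 genes had a median difference of -0.61 between WT-ES and WT-YL, against 0.53 over all genes, and 6 of 8 were below 0, as were 32.3% of all genes. After rescaling by median ratios, which brought the median of all genes to 0.003, the group's median was -1.18 and 8 of 8 genes were below 0, against 49.9% of all genes. *ARR8* (0.22) and *ARR16* (0.25) were above 0 as deposited and turned to -0.33 and -0.28 with this rescaling.

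In *hda9*, *ARR16* had 26.2 and 10.3 FPKM in hda9-ES, against 1.27 FPKM in hda9-YL, and *ARR8* had 18.0 and 9.99 FPKM in hda9-ES, against 4.46 FPKM in hda9-YL. They were the 2 genes of 7 that were at least 2-fold higher in both hda9-ES libraries, against 34.4% of all genes. On the log2 scale *ARR16* was higher by 3.59 and 2.32 and *ARR8* by 1.80 and 1.01. In WT the same genes had differences of 1.83 and -1.34 (*ARR16*) and 0.85 and -0.40 (*ARR8*) in replicates 1 and 2, and the contrast between genotypes in this age difference was not tested, since hda9-YL was 1 library. *ARR9* was lower in both hda9-ES libraries than in hda9-YL, with differences of -0.15 and -1.66. So were *ARR4*, with -0.19 and -1.36, and *ARR5*, with -0.04 and -0.36. Of all genes, 34.3% were lower in hda9-ES replicate 1 than in hda9-YL and 34.1% in hda9-ES replicate 2. Below the filter, *ARR15* (-0.41 and -0.63) and *ARR3* (-0.87 and -0.87) were also lower in both.

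**Figure D5:**
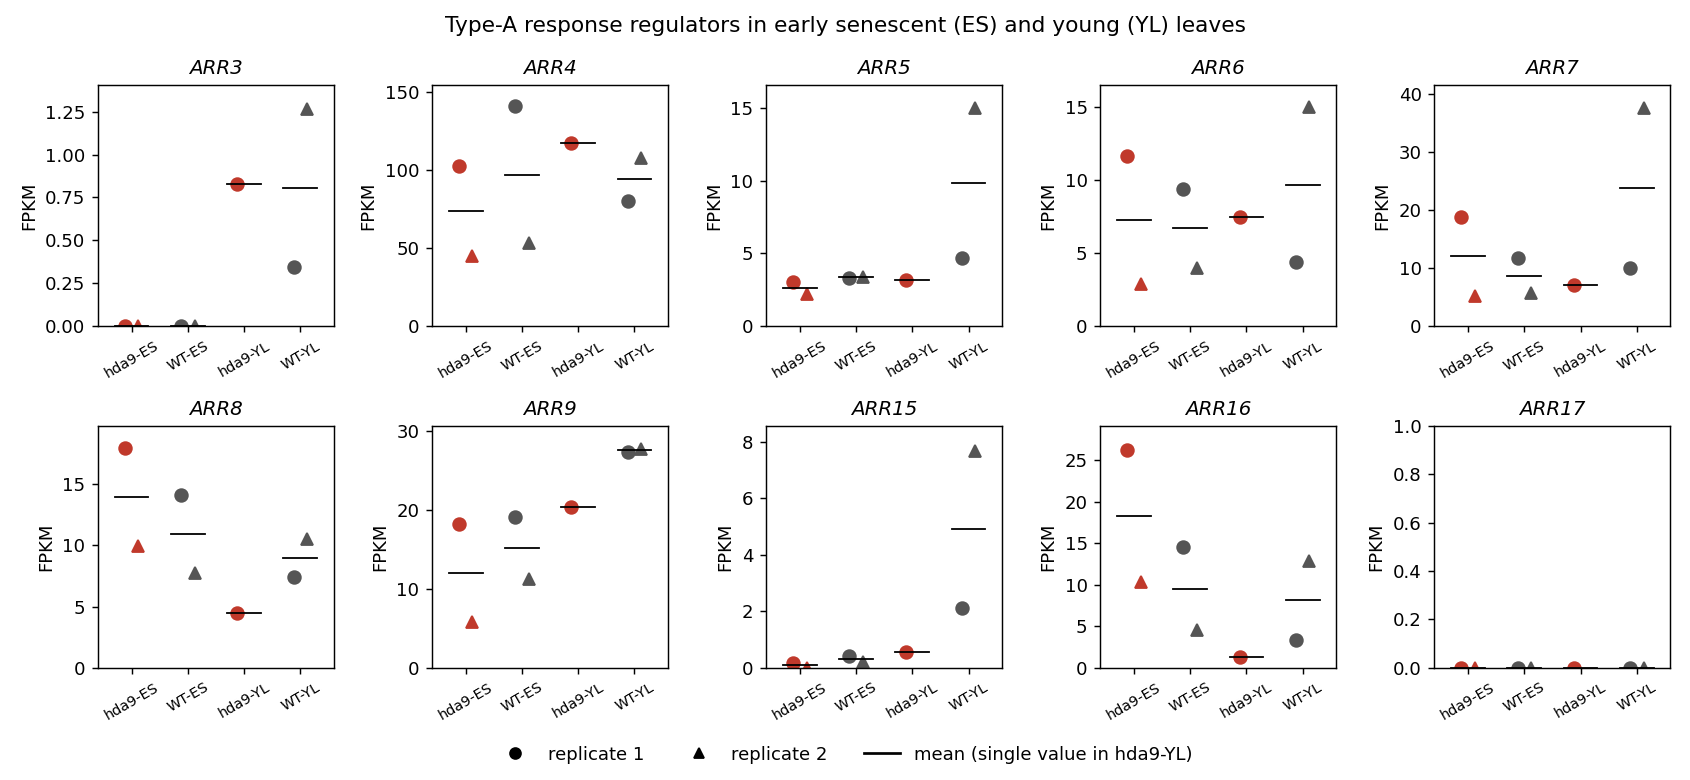
FPKM of all 10 type-A genes in ES and YL leaves of *hda9* (red) and WT (grey), with a panel for each gene and its own axis from 0. Circles and triangles are replicates 1 and 2, lines are means (a single value in hda9-YL); *ARR15* stood at 2.11 and 7.69 FPKM in WT-YL and under 0.5 FPKM in every WT-ES and hda9-ES library, and *ARR17* was listed at 0 throughout.

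In YL the order of levels was headed by *ARR4* (mean 102 FPKM over 3 libraries), followed by *ARR9* (25.2 FPKM) and *ARR7* (18.3 FPKM), and *ARR4* was again above all others in 3 of 3 libraries. *ARR6* (8.97 FPKM), *ARR5* (7.62 FPKM), *ARR8* (7.45 FPKM) and *ARR16* (5.84 FPKM) followed, and no neighbours from *ARR9* down to *ARR16* kept their order in all 3 libraries. *ARR15* (3.45 FPKM) and *ARR3* (0.811 FPKM) came last before *ARR17*, listed at 0.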

How the data were processed

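RNA-seq libraries were made from leaf RNA. Per the labels and the study's methods, the authors aligned reads to TAIR10 with Bowtie2, collapsed reads at identical positions into 1 read, and used Tophat and Cufflinks. They deposited FPKM values, with 1 table for the 6 ES libraries and 1 for the 3 YL libraries. The sources used here name no further scaling between libraries. The collapse of reads at identical positions can lower the FPKM of strongly expressed genes. The ChIP-seq samples were not analysed here.

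Each column was matched to a sample by its title. FPKM were compared as log2(FPKM + 1), which understates the change of weakly expressed genes, over the 18140 genes with a mean of at least 1 FPKM in ES. The 3 genotypes were fitted in 1 model with limma 3.58.1 in R 4.3.3 (eBayes with a trend, two-sided), without a block. Calls used an unadjusted p under 0.05, and p-values were also adjusted by Benjamini-Hochberg over all genes tested. The fit was tried on simulated data with independent noise and large planted changes. That trial does not cover deviations shared between libraries or the presence of steps. At an adjusted p under 0.05, 5 genes passed in hda9-ES and 6 in pwr-ES against WT-ES, and 0 in hda9-ES against pwr-ES, of which 865 had an unadjusted p under 0.05. None was a type-A gene. In YL, 8 of the 10 genes passed the same filter of 1 FPKM, as they did over the 4 WT libraries, and 7 did over the hda9 libraries. A library counted as having whole-read steps if its FPKM ratio to another library was the same in more than 10% of the genes under 1 FPKM. The 4 libraries without steps did not pass this with each other, so the block for steps treats them alike without evidence that they share a preparation. Differences over YL, or between ages, were not tested.

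The type-A genes, the cytokinin pathway list and the markers were chosen with earlier results of these data known. The text names all 10 type-A genes, the pathway genes that were called, *HDA9* and *PWR*, and the 3 genes most like the group's mean profile. Other steps used Python 3.11.15, pandas 2.3.3, numpy 2.4.6 and matplotlib 3.10.9. Promoters and positions are from RefSeq TAIR10.1, and the TAIR10 loci given by the study overlapped the same gene there in 3117 of 3117 cases. The alternatives tried were another pseudocount, other filters, 2 scalings, a block for the replicate number or the presence of steps, a fit of 2 groups only, adjusted p, and each library left out in turn.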

Additional observations from a re-analysis of the deposited data

How the results depend on the processing

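No type-A gene was called in any of the 3 ES comparisons with a pseudocount of 0.1, no filter, a filter at 5 FPKM (which left 6 genes), either rescaling, a fit of the 2 groups only, or adjusted p. The cause of the changes that follow was not tested. With the presence of whole-read steps as a block, the count of genes called was 3 in pwr-ES against WT-ES and 5 in hda9-ES against pwr-ES, the median of pwr-ES against WT-ES was 1.04 and *ARR16* turned to 0.23. *ARR9* in pwr-ES against WT-ES turned to -0.019 with equal 75th percentiles and -0.075 with median ratios.

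Each library was left out in turn, where a lone library was assumed to vary like the other groups. The count called was then 0 to 1 in hda9-ES against WT-ES (1 without hda9-ES replicate 1), 0 in pwr-ES against WT-ES, and 0 to 2 in hda9-ES against pwr-ES. The median ranged from -0.58 to 0.73 in hda9-ES against WT-ES and from 0.064 to 1.097 in pwr-ES against WT-ES, the highest without WT-ES replicate 1, and from -1.25 to -0.10 in hda9-ES against pwr-ES. In hda9-ES against WT-ES, *ARR4* ranged from -1.04 to 0.34, *ARR6* from -0.89 to 0.81, *ARR7* from -0.58 to 1.11, *ARR8* from -0.066 to 0.73 and *ARR9* from -1.22 to 0.29. In pwr-ES against WT-ES, *ARR4* ranged from -0.29 to 1.097, *ARR9* from -0.33 to 0.38 and *ARR16* from -1.53 to 0.60. In hda9-ES against pwr-ES, *ARR6* ranged from -1.48 to 0.22 and *ARR9* from -1.25 to 0.26. *ARR5* kept its direction in all 3 comparisons. The median of WT-ES minus WT-YL ranged from -1.01 to -0.08.

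Deviations of same-numbered libraries from the mean of their group correlated at 0.55 between hda9-ES and WT-ES over 18140 genes. The correlation was 0.10 between pwr-ES and WT-ES and -0.01 between hda9-ES and pwr-ES. Same-numbered libraries thus deviated alike in hda9-ES and WT-ES, but not in pwr-ES. With the replicate number as a block, 0 type-A genes were called in each comparison, and of the 36 other pathway genes 2 in hda9-ES against WT-ES, 3 in pwr-ES against WT-ES and 1 in hda9-ES against pwr-ES. Over all genes, hda9-ES against WT-ES had 404 higher and 491 lower calls. Blocking on the replicate number gave 812 and 748, and blocking on steps 1735 and 1340. For pwr-ES against WT-ES there were 662 higher and 511 lower calls. Blocking on the replicate number gave 1332 and 829, blocking on steps 1032 and 1202, and median ratios 578 and 670. For hda9-ES against pwr-ES there were 365 higher and 500 lower calls. Blocking on the replicate number gave 625 and 870, blocking on steps 1797 and 1643, median ratios 497 and 439, and the fit of 2 groups 480 and 428.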
